A study of Mus musculus with 4 samples.

Results

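The Hox genes are homeobox transcription factor genes that lie in 4 clusters on different chromosomes, and they were taken from the count table by a symbol made of Hox, a cluster letter from a to d and a number. That rule found 39 of the 55421 genes in all, and 38 are described, 10 each in HoxA and HoxB and 9 each in HoxC and HoxD. Poly(A) RNA was read by RNA-seq in primary cultures of spermatogonia (SSC cultures) from CD1 mice, set up from testes of 6-day-old pups and kept on irradiated mouse embryonic fibroblast (MEF) feeder cells of CF1 origin. Veh cultures were left in complete SSC medium, which contained N2, bFGF and GDNF. For NRRA, which combines nutrient restriction with retinoic acid (RA), EBSS salt solution took the place of most of the medium, RA was added, and the treatment lasted 48 h. There were 2 NRRA and 2 Veh libraries, and no group with RA alone or nutrient restriction alone was analysed here. Both groups shared the CD1 strain and the feeder layer, and no mutant allele is named for either.

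Within a cluster the genes are transcribed in the same direction and are numbered from the 3′ end, so that genes of the same number in different clusters (paralogs) descend from 1 ancestral gene. The order along the cluster matches the order of expression along the body axis of the embryo, where 3′ genes are switched on first and further toward the head. RA is a classical inducer of 3′ Hox genes in embryonic and pluripotent stem cells, Polycomb proteins keep silent clusters in a repressed state, and fibroblasts keep a Hox pattern that reflects the body position they came from. For the description below, paralogs 1 to 3 are called anterior, 4 to 8 central and 9 to 13 posterior.

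In NRRA the genes called higher included Hoxa2 to Hoxa7, Hoxb1, Hoxb3 to Hoxb5 and Hoxb13. The 5 posterior genes of HoxC were lower, and so, by smaller amounts, were Hoxb6 to Hoxb9. Of these, Hoxa6, Hoxa7 and Hoxb8 were not called by DESeq2, which was run as an alternative. Of the 38 Hox genes, 31 passed the filter on low counts and were tested, 14 were higher in NRRA, 9 were lower and 8 did not pass the threshold (adjusted p under 0.05 in edgeR's quasi-likelihood test, adjusted by Benjamini-Hochberg). These calls made up 74.2% of the tested Hox genes, against 56.4% of the 20232 genes tested in the table, 27.9% higher and 28.4% lower. At least 2-fold changes were called for 6 Hox genes upward and 4 downward, against 6.29% and 7.02% of all tested genes. The 2 libraries of one group lay wholly above or below those of the other for 25 of the 31, and for 76.7% of all tested genes. The median log2 fold change (NRRA over Veh) of the 31 was 0.13, with a spread of 0.071 (SD over the 4 possible pairings of 1 NRRA with 1 Veh library), beside 0.00029 over all tested genes. The median was 0.23 without Veh replicate 2, 0.035 without NRRA replicate 1 and 0.24 without NRRA replicate 2, and over the Hox genes whose exons overlap no other gene it was 0.050.

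**Figure D1:**
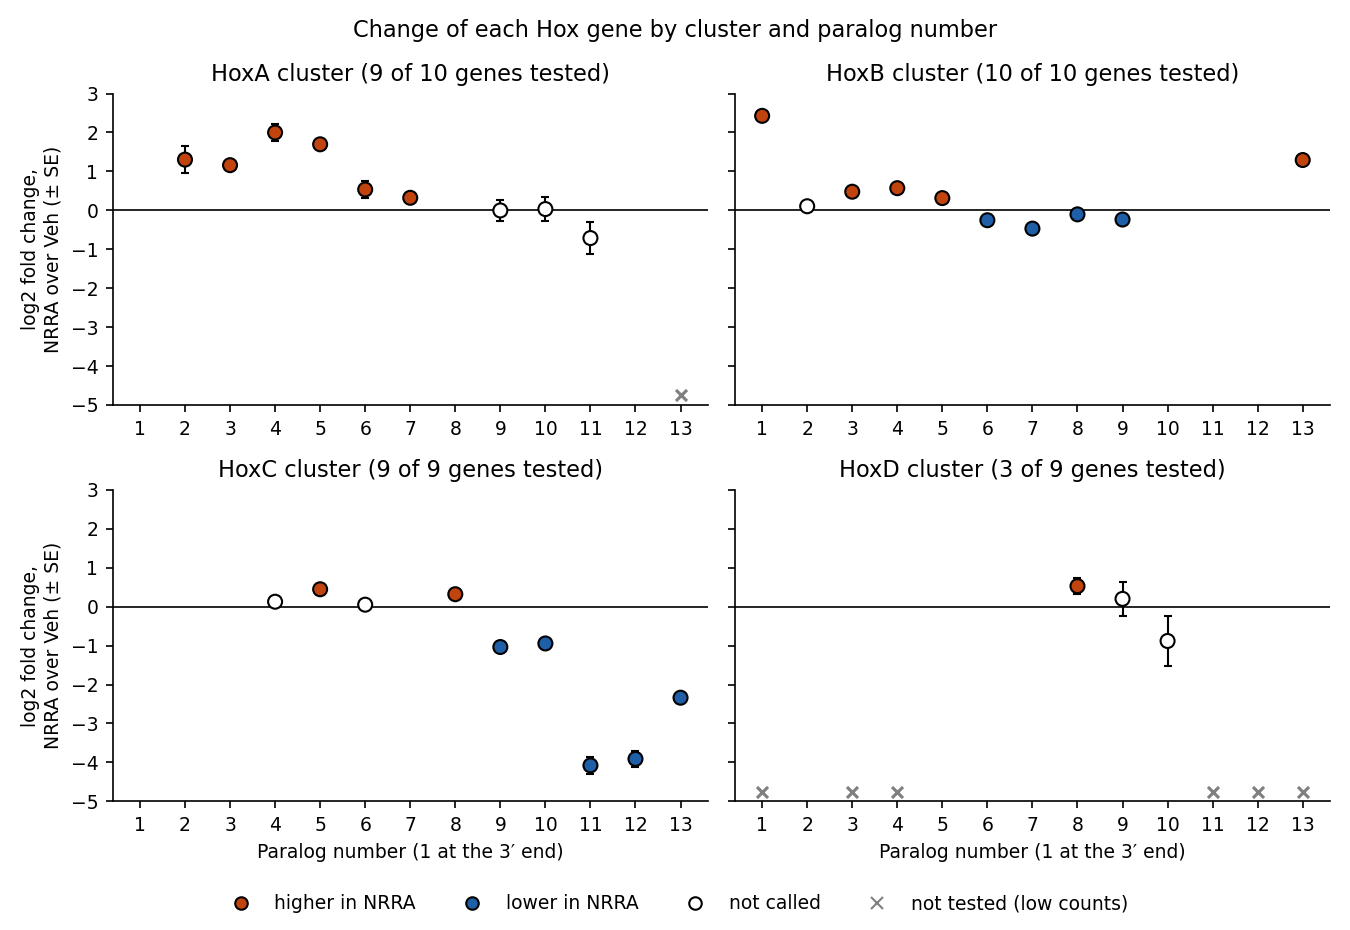
Log2 fold change of each tested Hox gene in NRRA over Veh (y axis, bars are SE) by paralog number (x axis), 1 panel for each cluster. Red and blue points passed the threshold, white points did not, and grey crosses at the foot mark genes that were not tested and have no value. Values are higher on the left than on the right in HoxA and HoxC, from 1.30 for Hoxa2 to -0.71 for Hoxa11 and from 0.13 for Hoxc4 to -2.34 for Hoxc13, while Hoxb13 stands at 1.29.

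The Hox genes together took between 0.0572% and 0.06915% of the counts of a library. Totals ran from 28022265 to 31604769 counts, and a count of 3, used as the floor, stood for 0.0921 to 0.111 CPM (counts scaled to the library size). Library sizes were adjusted by TMM normalization. Libraries of 1 group differed by more than counting noise (chi-square per degree of freedom of 2.45 in Veh and 1.99 in NRRA), so none was counted as a repeat deposit. The spread beyond counting noise was nonetheless small, with a common coefficient of variation of 2.61% in edgeR. Such a value does not tell whether the libraries of 1 group came from separate cultures. The labels name no culture or animal for a library, although the methods describe biological replicates, so the p-values measure only the spread between these libraries. Germ cell markers were present in all libraries, with a summed level of 2374 to 2482 CPM for 12 genes, and so were feeder markers, with 9111 to 12433 CPM for 25 genes. In such mixed RNA, fewer cells of a type and less RNA per cell cannot be told apart, and neither can the cell type that a Hox transcript came from.

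Hoxb1 had the largest rise of the Hox genes described. It is a paralog 1 gene known for setting up hindbrain segments and for an autoregulatory loop with PBX cofactors. The Veh libraries held 138 and 110 counts of it and the NRRA libraries 779 and 694, which is 5.09 and 3.70 CPM against 23.9 and 23.1 CPM. Both NRRA libraries lay above both Veh libraries, and the level was 5.38-fold higher (log2 fold change 2.43, SE 0.116, adjusted p 1.13e-15). Hoxb1 (ENSMUSG00000018973) lies on the plus strand of chromosome 11 from 96365752 to 96368256 (GRCm38) and has 2 exons. The 250 bases before its start in RefSeq (GRCm38.p6, chr11:96365508-96365757, plus strand) are shown because they carry TGATNNAT, the composite motif that PBX and HOX proteins bind together, 162 to 155 bases before the start. The same length before Hoxb4 (chr11:96318017-96318266, plus strand) carries AGGTCA, the core site of retinoid receptors, on the opposite strand as TGACCT, 81 to 76 bases before the start. Capitals mark the motif in each.
Hoxb1: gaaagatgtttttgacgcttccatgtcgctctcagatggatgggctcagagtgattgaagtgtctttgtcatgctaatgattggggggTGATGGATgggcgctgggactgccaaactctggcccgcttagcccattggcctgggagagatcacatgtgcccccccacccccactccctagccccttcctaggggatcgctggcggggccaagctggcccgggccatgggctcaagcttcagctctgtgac
Hoxb4: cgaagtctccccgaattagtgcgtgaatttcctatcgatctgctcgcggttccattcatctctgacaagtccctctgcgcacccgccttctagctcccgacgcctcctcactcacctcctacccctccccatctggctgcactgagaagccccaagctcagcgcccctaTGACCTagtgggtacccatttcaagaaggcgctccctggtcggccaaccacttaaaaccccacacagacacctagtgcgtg
Both motifs were searched on both strands, and neither of these windows held the other motif. RefSeq windows were found for 22 of the 38 Hox genes (24 windows). The composite motif stood before 4 of the 22 (Hoxa2, Hoxb1, Hoxb8 and Hoxd11) and in 7.68% of all 32851 windows. The core site stood before 6 of the 22 (Hoxb4, Hoxc4, Hoxd3, Hoxd4, Hoxd8 and Hoxd10) and in 14.02% of all windows. No Hox window held 2 receptor sites as a direct repeat spaced by 1, 2 or 5 bases, an arrangement found in at most 0.033% of all windows. These matches are letters and were not tested for binding.

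Anterior genes of HoxA rose as well. Hoxa2, which patterns the second branchial arch, had 20 and 15 counts in Veh, compared with 58 and 38 in NRRA, a log2 fold change of 1.30 (adjusted p 0.00248). With NRRA replicate 1 left out, Hoxa2 stood at 1.03 with an adjusted p of 0.0694. Hoxa3, needed for the thymus and parathyroid, had 149 and 135 counts in Veh, compared with 382 and 319 in NRRA (5.49 and 4.54 against 11.7 and 10.6 CPM). It rose 2.23-fold (log2 1.16, SE 0.130, adjusted p 2.10e-08). Both are transcribed from the minus strand of chromosome 6, and 15.04% of the exonic bases of Hoxa2 and 8.02% of those of Hoxa3 overlap Gm28308 on the same strand, where reads could not be assigned to 1 gene.

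In the central part of HoxA, 2 genes gained more than the anterior ones around them. Hoxa4 had 40 counts in each Veh library, compared with 158 and 194 in NRRA (1.47 and 1.34 against 4.85 and 6.44 CPM), a 3.99-fold rise (log2 2.00, SE 0.208, adjusted p 5.86e-09). Hoxa5, which takes part in lung and axial skeleton development, had 261 and 283 counts in Veh, compared with 1035 and 908 in NRRA. On the CPM scale it went from 9.62 and 9.51 to 31.8 and 30.2, a 3.24-fold rise (log2 1.70, SE 0.0826, adjusted p 1.57e-15). For both genes the lowest NRRA library stood at more than 3 times the highest Veh library in CPM. The difference in log2 fold change between these genes and their anterior neighbours was not tested.

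The smaller gains of HoxA ended at paralog 7. Hoxa6 had 52 and 61 counts in Veh, compared with 83 and 97 in NRRA (log2 0.53, adjusted p 0.0406). Hoxa7 had 245 and 296 counts in Veh, compared with 377 and 367 in NRRA (log2 0.32, adjusted p 0.0123). These calls depended on single libraries. Hoxa6 had adjusted p-values of 0.127, 0.0622 and 0.305 without Veh replicate 1, Veh replicate 2 and NRRA replicate 2, and Hoxa7 had 0.0949 and 0.0835 without Veh replicate 1 and NRRA replicate 2. DESeq2 gave adjusted p-values of 0.182 for Hoxa6 and 0.0797 for Hoxa7. Beyond paralog 7 no HoxA gene was called. Hoxa9, which is active in blood progenitors, had 50, 56, 76 and 41 counts (Veh 1, Veh 2, NRRA 1, NRRA 2) and Hoxa10, a gene of the uterus and of axial patterning, had 25, 48, 47 and 35, with overlapping groups. Hoxa11, a gene of the forearm and uterus, had 26, 23, 21 and 12 counts and a log2 fold change of -0.71 with an adjusted p of 0.150, which was -1.10 without NRRA replicate 1 and -0.42 without NRRA replicate 2. Hoxa13, a gene of the distal limb and genital tubercle, had 3, 8, 1 and 0 counts and was not tested. HoxA thus had 6 of 9 tested genes higher (66.7%, against 27.9% of all tested genes, and 4 genes by DESeq2) and 0 lower, also 0 lower at an unadjusted p under 0.05 in edgeR and by DESeq2 either way, and its median log2 fold change was 0.53, or 0.85 with the stricter filter on low counts. Together its genes stood at 32.3 CPM in Veh, compared with 67.8 in NRRA, 2.10 times as much.

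HoxB was the cluster with the highest level, and its genes changed in both directions. Its 10 genes summed to 463 CPM in Veh and 518 CPM in NRRA, which was between 76.5% and 78.7% of all Hox CPM in each library. Hoxb3, which acts in the hindbrain and in blood progenitors, had 1031 and 1112 counts in Veh, compared with 1690 and 1598 in NRRA (38.0 and 37.4 against 51.9 and 53.1 CPM). It rose 1.39-fold (log2 0.48, SE 0.0539, adjusted p 2.39e-08). Hoxb4, known for expanding blood stem cells when added to them, had 1232 and 1318 counts in Veh, compared with 2209 and 1961 in NRRA (45.4 and 44.3 against 67.8 and 65.1 CPM). Its rise was 1.48-fold (log2 0.57, SE 0.0498, adjusted p 2.29e-10), and its upstream sequence is printed above. Hoxb5, a neural crest and gut nerve gene, had 731, 716, 1051 and 934 counts and a log2 fold change of 0.31 (adjusted p 0.000394). Between Hoxb1 and Hoxb3, Hoxb2, a hindbrain gene, did not pass the threshold. It had 977, 974, 1260 and 1056 counts, overlapping groups in CPM and a log2 fold change of 0.10 (adjusted p 0.183). With library-size scaling it was called higher (0.19, adjusted p 0.0132). With 1 library left out, its log2 fold change ran from 0.034 without Veh replicate 2 to 0.17 without Veh replicate 1.

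From Hoxb6 to Hoxb9 the HoxB genes fell by small amounts. Hoxb6 had 1847 and 1881 counts in Veh, compared with 1801 and 1646 in NRRA (68.1 and 63.2 against 55.3 and 54.7 CPM), a log2 fold change of -0.25 (SE 0.0492, adjusted p 8.00e-05). Hoxb7 had 1053 and 1094 counts in Veh, compared with 888 and 821 in NRRA (38.8 and 36.8 against 27.3 and 27.3 CPM), the largest fall of the 4 at -0.47 (SE 0.0629, adjusted p 4.30e-07). Both are trunk-patterning genes of the central group, and in both the groups did not overlap. Hoxb9, a thoracic gene, had 2057, 2181, 2113 and 1854 counts (75.8 and 73.3 against 64.9 and 61.6 CPM) and a log2 fold change of -0.24 (SE 0.0458, adjusted p 8.05e-05). With library-size scaling Hoxb6 and Hoxb9 stood at -0.16 and -0.15 and were still called lower. Hoxb8, active in the spinal cord and in blood progenitors, had the highest counts of the Hox genes described, with 3203 and 3404 in Veh and 3521 and 3255 in NRRA. Its log2 fold change was -0.10 (adjusted p 0.0170), which was not called by DESeq2 (adjusted p 0.0896), with library-size scaling (-0.014, adjusted p 0.761), or without Veh replicate 1, NRRA replicate 1 or NRRA replicate 2 (adjusted p 0.109, 0.0993 and 0.0777).

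Hoxb13 went the other way from its cluster neighbours and from its paralog in HoxC. This posterior gene, which is known for its role in the prostate, lies apart, with 74 kb between its end and the start of Hoxb9. It had 600 and 652 counts in Veh, compared with 1791 and 1588 in NRRA (22.1 and 21.9 against 55.0 and 52.7 CPM), so that all NRRA values lay above all Veh values. The rise was 2.45-fold (log2 1.29, SE 0.0605, adjusted p 7.14e-16), the smallest adjusted p of the Hox genes described. Hoxc13, the gene of hair and nail keratins, had 571 and 449 counts in Veh, compared with 119 and 104 in NRRA (21.1 and 15.1 against 3.65 and 3.45 CPM). It was 5.06-fold lower (log2 -2.34, SE 0.145, adjusted p 2.31e-13). The difference between the 2 log2 fold changes was not tested as such.

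Their homeoboxes, the coding bases of the DNA-binding homeodomain, are printed to show how far the reads of these paralogs can be told apart. Both lie in exon 2 of 2, on the plus strand, at chr11:96196020-96196199 for Hoxb13 and chr15:102927210-102927389 for Hoxc13 (GRCm38). Capitals in the Hoxc13 sequence mark the bases that differ from Hoxb13.
Hoxb13: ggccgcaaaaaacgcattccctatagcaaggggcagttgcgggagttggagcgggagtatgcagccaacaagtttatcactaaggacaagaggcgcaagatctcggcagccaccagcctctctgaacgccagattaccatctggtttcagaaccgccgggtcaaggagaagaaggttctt
Hoxc13: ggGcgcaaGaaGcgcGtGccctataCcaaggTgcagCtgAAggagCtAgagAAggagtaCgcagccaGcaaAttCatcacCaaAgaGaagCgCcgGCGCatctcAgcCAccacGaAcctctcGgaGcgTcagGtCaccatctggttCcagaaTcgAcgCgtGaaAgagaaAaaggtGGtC
The pair shared 133 of 180 bases (73.9%), and the longest identical run was 11 bases. Over the 40 pairs of genes with the same number the identity of the homeobox ran from 67.2% to 93.9% with a median of 80.6%, and over the 663 other pairs the median was 60.6%. The longest transcript of each Hox gene was searched, and none had a stretch of at least 100 bases with at least 95% identity in a gene at another locus. Shorter identical runs within the homeobox reached 52 bases, for Hoxa6 and Hoxb4.

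The largest falls of the Hox genes described were in the 5′ part of HoxC. Hoxc11, a gene of the hindlimb and posterior spine, had 222 and 304 counts in Veh, compared with 19 and 15 in NRRA (8.19 and 10.2 against 0.583 and 0.498 CPM). It was 16.9-fold lower (log2 -4.08, SE 0.218, adjusted p 1.14e-14). Hoxc12 had 244 and 264 counts in Veh, compared with 22 and 15 in NRRA (8.996 and 8.87 against 0.675 and 0.498 CPM), which was 15.04-fold lower (log2 -3.91, SE 0.207, adjusted p 9.25e-15). In both genes the NRRA libraries remained above the floor of 3 counts. Hoxc9, which marks thoracic motor neurons, had 311 and 325 counts in Veh, compared with 191 and 151 in NRRA (11.5 and 10.9 against 5.86 and 5.02 CPM), a 2.05-fold fall (log2 -1.04, SE 0.124, adjusted p 6.96e-08). Hoxc10, a gene of lumbar motor neurons, had 276 and 280 counts in Veh, compared with 156 and 162 in NRRA (10.2 and 9.41 against 4.79 and 5.38 CPM), a 1.93-fold fall (log2 -0.95, SE 0.130, adjusted p 6.64e-07). The 5 genes from Hoxc13 to Hoxc9 lie side by side within 64 kb, on the plus strand of chromosome 15 from 102921103 to 102985099. They summed to 57.2 CPM in Veh and to 15.2 in NRRA, and all 5 stayed lower and past the threshold by DESeq2 and without any 1 of the 4 libraries.

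The 3′ part of HoxC did not fall. Hoxc8, a trunk and spinal cord gene, had 359, 448, 572 and 536 counts (log2 0.32, adjusted p 0.00364) and Hoxc5 had 137, 136, 204 and 206 (log2 0.45, adjusted p 0.0101). Hoxc8 was not called without Veh replicate 1 (0.23, adjusted p 0.0587). Hoxc5 was not called by DESeq2 (adjusted p 0.0763) or without Veh replicate 2 or NRRA replicate 2 (adjusted p 0.0649 and 0.0743), and 5.37% of its exonic bases overlap Hoxc10 on the same strand. Hoxc4 had 210, 224, 294 and 229 counts and Hoxc6 had 594, 639, 801 and 609, with log2 fold changes of 0.13 and 0.050, overlapping groups and adjusted p-values of 0.413 and 0.639. HoxC therefore had 2 of 9 genes higher and 5 lower (77.8% called, against 56.4% of all tested genes), a median log2 fold change of -0.95, and a share of all Hox CPM of 17.4% and 17.5% in Veh and of 10.9% and 10.4% in NRRA.

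HoxD had the lowest level. Its 9 genes summed to 3.35 CPM in Veh and 4.26 CPM in NRRA, and 3 of them were tested. Hoxd8 had 52, 64, 92 and 92 counts (log2 0.53, adjusted p 0.0369), but it was not called by DESeq2 (adjusted p 0.177) or without Veh replicate 1, NRRA replicate 1 or NRRA replicate 2 (adjusted p 0.158, 0.0595 and 0.147). Both being limb and spinal cord genes, Hoxd9 had 14, 16, 20 and 18 counts and Hoxd10 had 18, 7, 12 and 3, with adjusted p-values of 0.726 and 0.248. The 3′ genes of this cluster, which are RA targets in embryonic cells, stayed near the floor. Hoxd1 had 0 counts in both Veh libraries and 3 in both NRRA libraries, Hoxd3 had 1, 1, 1 and 4, and Hoxd4 had 4, 7, 8 and 7. Of the exonic bases, 62.3% in Hoxd3 and 52.3% in Hoxd4 are shared with each other or with Gm28230 on the same strand, where reads cannot be given to 1 gene. At the 5′ end, which patterns digits and genitalia, Hoxd11 had 5, 1, 0 and 2 counts, Hoxd12 had 0 in all libraries and Hoxd13 had 0, 0, 1 and 1. These 6 genes did not pass the filter on low counts and were not tested.

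**Figure D2:**
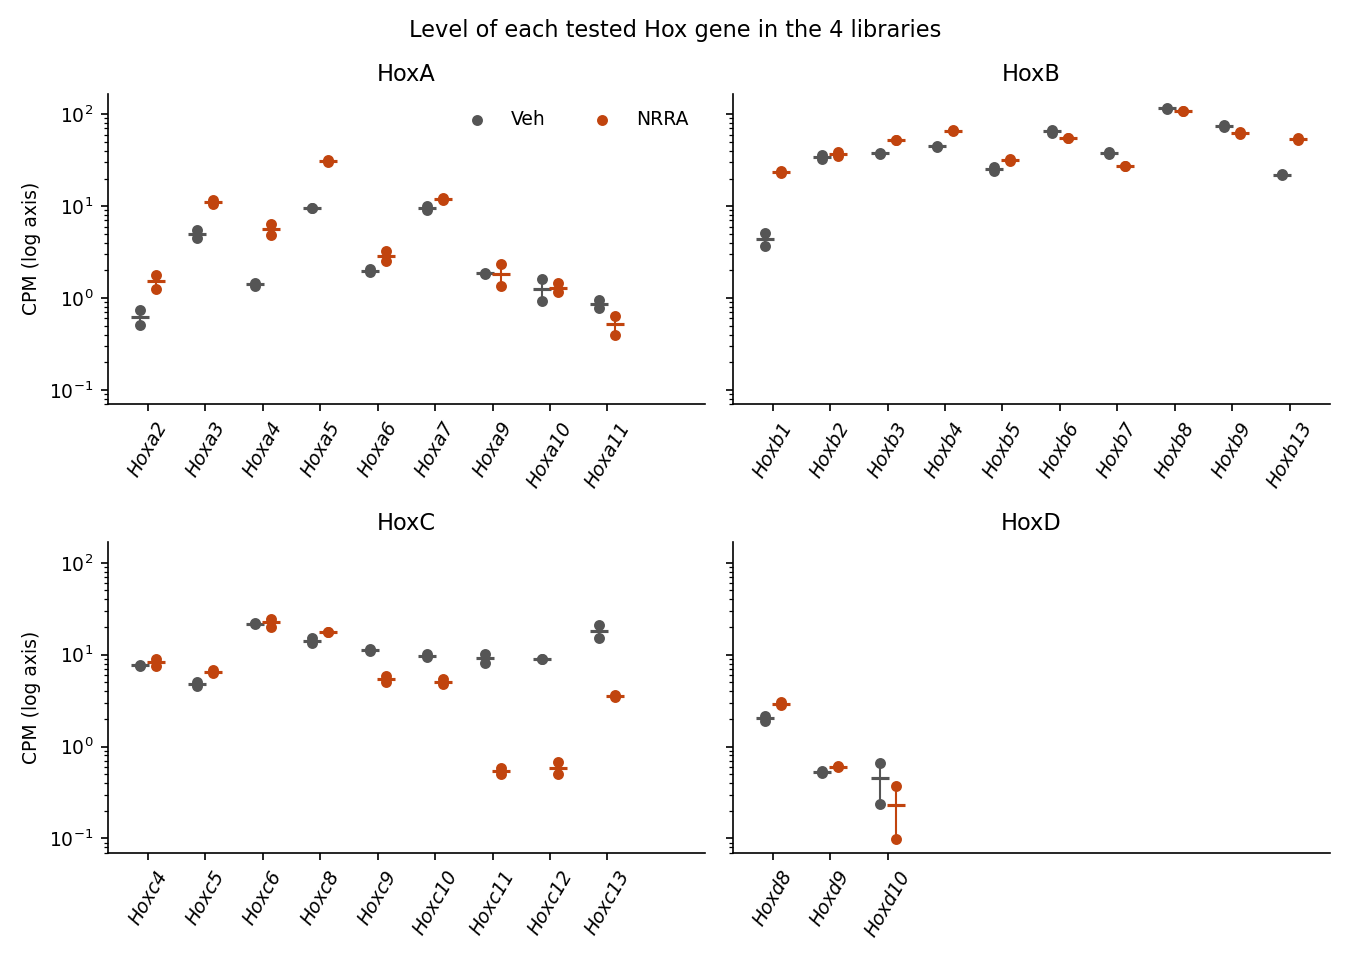
Level of the 31 tested Hox genes in CPM (y axis, log scale) in each library, 1 panel for each cluster. Points are single libraries, lines join the 2 libraries of a group and dashes are the group means. HoxB genes lie between 3.70 and 118 CPM, and the NRRA points of Hoxc11 and Hoxc12 lie below 1 CPM, far under their Veh points.

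By paralog class, 4 of 5 tested anterior genes were higher and 0 lower, also 0 lower at an unadjusted p under 0.05 in edgeR and by DESeq2 either way. Of the 14 central genes 9 were higher and 3 lower, and of the 12 posterior genes 1 was higher and 6 lower. The called shares were 80.0%, 85.7% and 58.3%, the last of them near the 56.4% of all tested genes. The medians of their log2 fold changes were 1.16, 0.32 and -0.80. With 1 library left out the posterior median ran from -0.98 to -0.34, and it was -0.43 without Veh replicate 1 and -0.34 without NRRA replicate 2. Of the central genes, 5 were higher without NRRA replicate 2, without Veh replicate 1 and by DESeq2. The posterior genes did not move alike, since the 5 in HoxC and Hoxb9 fell, Hoxb13 rose, and none of the 3 tested in HoxA or the 2 in HoxD was called. For the HoxA genes the count was also 0 at an unadjusted p under 0.05, in edgeR and DESeq2. Along the clusters, Spearman's rho between paralog number and log2 fold change was -0.85 in HoxA (9 genes), -0.83 in HoxC (9 genes) and -0.38 in HoxB (10 genes), or -0.75 in HoxB without Hoxb13. These points share the 4 libraries and neighbouring genes, so the values are given as a description. The anterior share of all Hox CPM was 13.8% and 13.4% in Veh against 19.1% and 18.96% in NRRA, and the posterior share 26.4% and 26.3% against 21.0% and 20.4%.

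Across paralog groups of the genes described, summed CPM was higher in NRRA for numbers 1 to 5 and 13, and lower for numbers 6 to 12. The ratio of NRRA over Veh ran from 0.066 for number 12 to 5.37 for number 1. The 4 genes of number 9 summed to 88.2 CPM in Veh and 71.1 in NRRA, and the 3 of number 11 to 10.2 and 1.10. The 4 genes of number 13 summed to 40.3 CPM in Veh and 57.5 in NRRA, a rise of the sum that holds the opposite changes of Hoxb13 and Hoxc13. Sums of CPM weigh genes by their level and length.

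Per length, as reads per kilobase of exon, that is CPM over the length of all exons in kb (RPKM), the order was led by the middle of HoxB. In Veh, Hoxb8 stood at 44.1 RPKM, Hoxb6 at 33.4, Hoxb9 at 29.0, Hoxb7 at 24.5 and Hoxb4 at 17.5, and none of these ranges over 2 libraries overlapped that of the next gene. Hoxb13, Hoxb2, Hoxb5, Hoxc6 and Hoxb3 followed between 9.98 and 8.87 RPKM, where each overlapped its neighbour in the order. Hoxa2, Hoxa9, Hoxa10, Hoxa11, Hoxd9 and Hoxd10 stood lowest among the tested genes, between 0.247 and 0.388 RPKM. Of the 30 pairs of neighbours in the order, 16 overlapped in Veh and 12 in NRRA. In NRRA, Hoxb8 and Hoxb6 still led with 41.03 and 27.997 RPKM, ahead of Hoxb4 at 25.9, Hoxb9 at 24.6 and Hoxb13 at 24.4. Hoxa5 moved from 5.10 to 16.5 RPKM and Hoxb1 from 1.89 to 10.1, while Hoxc12 moved from 8.67 to 0.569 and Hoxc11 from 4.55 to 0.268. The order stayed similar when the longest transcript was used in place of all exons (Spearman's rho of 0.988 in Veh), but some named places changed. In Veh, Hoxb7 then stood at 29.3 RPKM, above Hoxb9 at 28.97, Hoxc6 moved from rank 9 to 6 and Hoxb13 from rank 6 to 9.

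**Figure D3:**
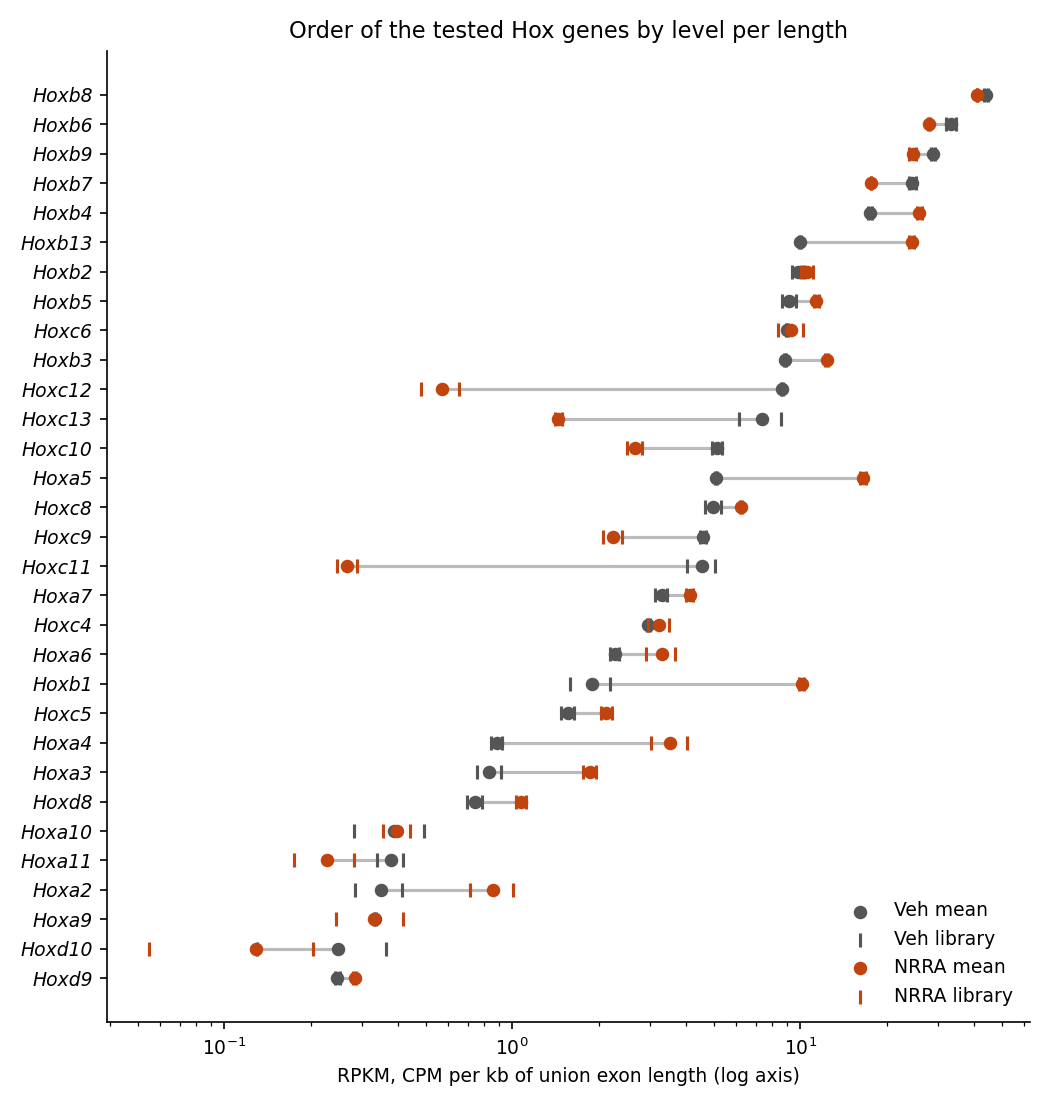
Level per length of the 31 tested Hox genes in RPKM (x axis, log scale), ordered by the Veh mean. Dots are group means, ticks are single libraries, and grey lines join the Veh and the NRRA mean of a gene. Hoxc11 and Hoxc12 have the longest lines to the left, and Hoxb1, Hoxa4 and Hoxa5 the longest to the right.

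Noncoding genes inside the clusters were also counted. Of the 9 tested of 16 named noncoding genes in the table, 4 were higher, 2 lower and 3 not called (66.7% called, against 56.4% of all tested genes), with a median log2 fold change of 0.33. Hotairm1, an RA-induced RNA at the 3′ end of HoxA, on the strand opposite to the coding genes, had 19, 24, 48 and 39 counts (log2 0.87, adjusted p 0.0263), and Hoxaas2, on the opposite strand between Hoxa2 and Hoxa3 and overlapping a Hoxa3 exon with 14.97% of its exonic bases, had 20, 41, 73 and 51 (log2 0.88, adjusted p 0.0149). In HoxB, Hoxb3os had 1510, 1565, 2255 and 2011 counts (log2 0.33, adjusted p 1.76e-06) and Hoxb5os had 166, 173, 240 and 248 (log2 0.39, adjusted p 0.0151). Hotair, transcribed from the opposite strand between Hoxc12 and Hoxc11 and known from work on Polycomb recruitment, had 16 and 28 counts in Veh, compared with 0 and 1 in NRRA. Summed over each group and scaled to library size, Hotair in Veh was 45.6 times its level in NRRA (95% exact binomial interval 7.76 to 1840, counting error only), and edgeR gave an adjusted p of 9.22e-06. Mir196a-1, a microRNA gene upstream of Hoxb9, had 35, 13, 4 and 13 counts (adjusted p 0.0159), and its groups met at the same count of 13. Mir10a had 9, 5, 18 and 12 counts and was not called (log2 0.94, adjusted p 0.159), with 1.48 when Veh replicate 1 was left out and 0.52 when Veh replicate 2 was. Reads in a poly(A) library that fall on a microRNA gene measure a longer precursor, not the mature microRNA. The 4 higher calls fell to 2 without Veh replicate 1, Veh replicate 2 or NRRA replicate 1 and to 1 by DESeq2, and the 2 lower calls fell to 1 by DESeq2 and without Veh replicate 1 or NRRA replicate 1.

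Among all 46 other genes that lie inside the 4 cluster spans, a list drawn after values had been seen, 17 were tested, 6 were higher and 5 lower (64.7% called, against 56.4% of all tested genes). The most counted of those lower was Gm53, a long noncoding RNA in the gap between Hoxb13 and Hoxb9, with 802 and 952 counts in Veh, compared with 407 and 357 in NRRA (log2 -1.34, SE 0.08, adjusted p 1.14e-13). It thus fell between a gene that rose and one that fell slightly. Gm27898 and Gm27605, annotated as miscellaneous RNA close to Hoxb13 on the opposite strand, were also lower (18, 21, 9 and 4 counts, and 54, 38, 24 and 28). Gm29430 (13, 14, 33 and 35 counts) and 5730596B20Rik (39, 28, 67 and 68 counts), which overlap Hoxa3 exons on the opposite strand, were higher, as Hoxa3 was. Reads of opposite strands were told apart in these counts. Of 203 genes that lie wholly under exons of a well-counted opposite-strand gene (over 1000 counts), 95.1% still had counts, against 0.238% of 420 such genes on the same strand.

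Genes that flank the clusters were called about as often as all tested genes. Of 18 found in the table, 16 were tested, 3 were higher and 6 lower (adjusted p under 0.05), which is 56.25% against 56.4% of all tested genes, and with library-size scaling 5 were higher. The median log2 fold change was -0.10. Skap1, beyond the 3′ end of HoxB, had 41, 67, 169 and 148 counts and the largest log2 fold change of the list, 1.41 (SE 0.199, adjusted p 9.65e-07). Ttll6, beyond Hoxb13, had 61, 80, 45 and 27 counts and the lowest, -1.11 (SE 0.270, adjusted p 0.00102). Evx1 and Evx2, the homeobox genes next to Hoxa13 and Hoxd13, had 0 to 5 counts and were not tested. Beside HoxA the log2 fold changes were 0.038 for Hibadh, 0.066 for Skap2 and -0.091 for Snx10. Beside HoxC they were 0.056 for Calcoco1, -0.20 for Smug1, -0.12 for Atp5g2, -0.27 for Cbx5 and -0.51 for Hnrnpa1.

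The listed RA targets outside the clusters all rose, most of them by more than Hoxb1. This list was chosen with earlier results of these data known, so its share of higher genes is only a description. The 10 genes of the list were higher, against 27.9% of all tested genes, with a median log2 fold change of 2.94, and 0 were lower, also 0 at an unadjusted p under 0.05 in edgeR and by DESeq2 either way. Cyp26a1, the enzyme that degrades RA, had 23, 28, 8191 and 7760 counts (log2 8.14, SE 0.0733), and Rarb, a RA receptor gene, had 1, 9, 1212 and 1204 (log2 7.74, SE 0.194). The first Veh library of Rarb lay under the floor of 3 counts, and leaving out Veh replicate 1 gave a log2 fold change of 6.98 and leaving out Veh replicate 2 one of 9.88. Stra8, the meiotic gatekeeper induced by RA, had 261, 300, 60702 and 55775 counts (log2 7.56, SE 0.0354). Nrip1, a nuclear receptor corepressor, had the smallest rise of the list, 1.496. Hoxb1, at 2.43, Hoxa4, at 2.00, and Hoxa5, at 1.70, lay inside the range of the list, and the other tested Hox genes described lay below its lowest value.

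Regulators upstream of the Hox genes moved in both directions. Of 10 listed ParaHox genes and upstream regulators 7 were tested, 3 were higher and 3 lower (85.7% called, against 56.4% of all tested genes), and the median log2 fold change was -0.30. Cdx1, a ParaHox factor and RA target that activates Hox genes, had 6 and 5 counts in Veh, compared with 34 and 37 in NRRA (log2 2.53, SE 0.474, adjusted p 5.53e-05). Gbx2, which acts at the border of midbrain and hindbrain and in stem cell self-renewal, had 33, 24, 193 and 200 counts and the largest value, 2.64 (SE 0.214). Gsx1, a ParaHox gene, had 34 and 38 counts in Veh and 1 in each NRRA library. Its summed level in Veh was 37.3 times that in NRRA (95% exact binomial interval 9.95 to 313.7, counting error only). Egr2, which activates hindbrain Hox genes such as Hoxb2 and is also a growth factor response gene, had 2291 and 2570 counts in Veh, compared with 145 and 134 in NRRA (log2 -4.26, SE 0.0732). Cdx2 (1, 10, 0 and 0 counts), Cdx4 (0 in all) and Gsx2 (5, 4, 0 and 1) were not tested.

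Of 8 TALE cofactors, which bind DNA together with HOX proteins, 3 were higher, 1 lower and 4 not called (4 of 8 called, against 56.4% of all tested genes). Their median log2 fold change was -0.021, or -0.036 to -0.0036 with 1 library left out. Pbx4, a testis-expressed member, had 126, 118, 348 and 292 counts and the largest value, 1.25 (SE 0.135). Meis2, a cofactor and RA-responsive gene, had 292, 311, 688 and 573 counts (log2 0.92, SE 0.0926). Pknox1 had the lowest value, -0.64 (SE 0.0596, 1195, 1309, 932 and 836 counts). Without Veh replicate 1 or Veh replicate 2 there were 2 lower TALE genes. Meis1 had 179, 209, 218 and 203 counts and was not called (log2 -0.021, adjusted p 0.908), and 9.77% of its exonic bases overlap Gm37818 on the same strand.

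Chromatin regulators of the clusters moved in both directions. Among the 24 Polycomb subunits, 10 rose and 10 fell (83.3% called, against 56.4% of all tested genes). Their median log2 fold change was 0.011, or -0.0099 to 0.054 with 1 library left out, and values ran from -0.87 for Jarid2, which recruits the H3K27 methyltransferase complex, to 0.81 for Phf1. Ezh2, its catalytic subunit, had 2086, 2266, 2465 and 2273 counts and was not called (log2 -0.018, adjusted p 0.752). Among 11 Trithorax subunits and H3K27 demethylases, 3 were higher and 3 lower (54.5% called, near the share of all tested genes), and with library-size scaling 7 were higher. The median was -0.0099, or -0.012 to 0.0020 with 1 library left out, and values ran from -0.75 for Kdm6a, an H3K27 demethylase, to 0.38 for Men1. Kmt2a, the H3K4 methyltransferase that maintains Hox expression, had 15029, 16472, 18079 and 16406 counts and was not called (log2 -0.0099, adjusted p 0.751), but it was called higher with library-size scaling (0.080, adjusted p 0.00515).

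**Figure D4:**
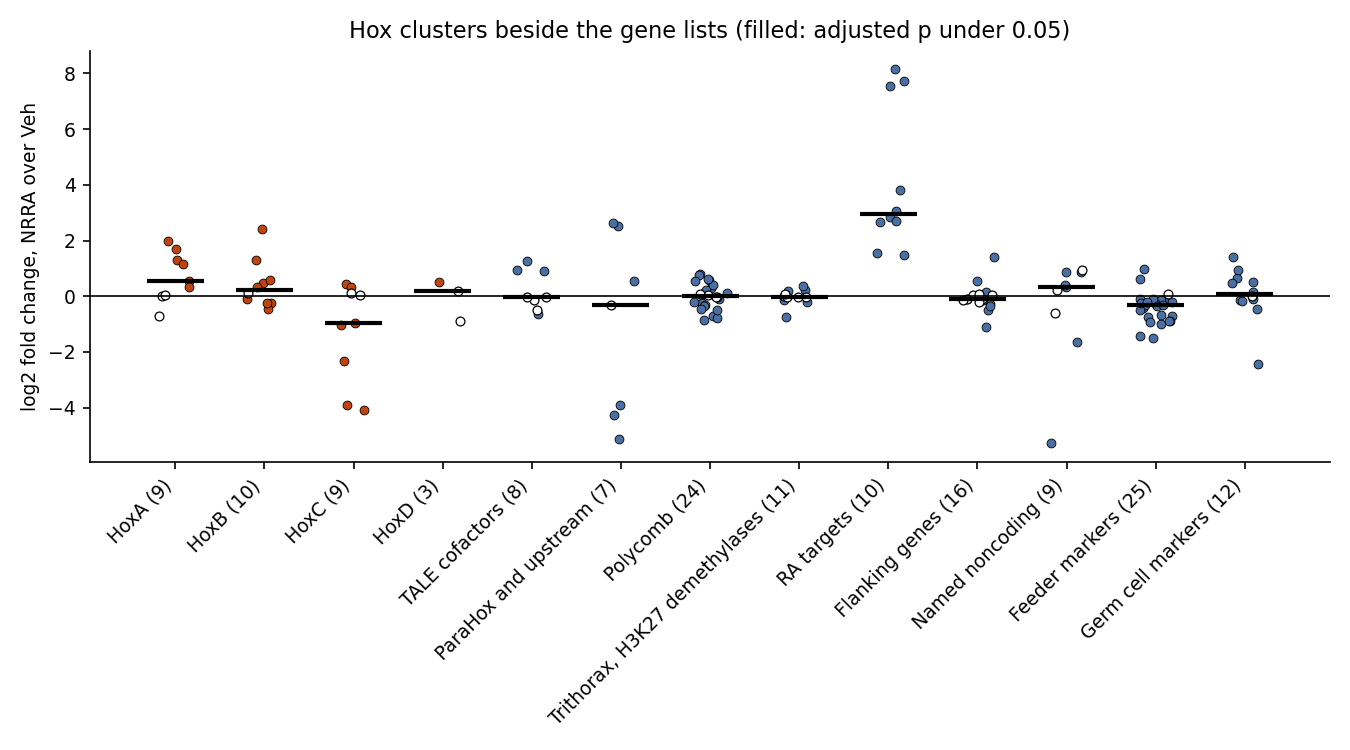
Log2 fold change in NRRA over Veh (y axis) of each tested gene in the 4 Hox clusters (red) and in the other lists (blue), with the number tested in brackets. Filled points passed the threshold, white points did not, and bars are medians. The RA targets lie highest with a median of 2.94, the HoxA median is 0.53 and the HoxC median -0.95, and the feeder markers have a median of -0.33.

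Markers of the feeder fibroblasts moved as well and are given beside the Hox changes. Of 25 markers 22 were lower (against 28.4% of all tested genes), 2 higher and 1 not called, none was at 0, and their summed level was 12307 to 12433 CPM in Veh and 9111 to 9385 CPM in NRRA, 0.748 times as much. Their median log2 fold change was -0.33, from 0.98 for Pdgfra, a fibroblast receptor, to -1.52 for Timp1, a metalloprotease inhibitor. Col1a1, a collagen gene, stood at -0.097 (34171, 35909, 38575 and 33762 counts), Prrx1, a mesenchymal transcription factor, at -0.25 (2354, 2581, 2488 and 2089), and Twist1, another one, at -0.91 (498, 557, 332 and 287). Col1a1 was not called by DESeq2 (adjusted p 0.103), with library-size scaling (adjusted p 0.826) or without NRRA replicate 2 (adjusted p 0.0655), and Prrx1 stood at -0.16 with library-size scaling. Hoxc11, Hoxc12 and Hoxc13 had lower log2 fold changes than all 25 feeder markers. Hoxb1, Hoxb13, Hoxa2, Hoxa3, Hoxa4 and Hoxa5 had higher ones than all 25, and the other tested Hox genes described lay inside their range. The part of the feeder cells in the Hox changes was not tested. Germ cell markers had a median of 0.090 with 6 of 12 higher and 5 lower (91.7% called, against 56.4% of all tested genes), and the median was 0.056 without Veh replicate 1. Values ran from 1.40 for Sycp3, a meiotic axis gene, to -2.43 for Zbtb16, a gene of undifferentiated spermatogonia. Hoxc11 and Hoxc12 lay below this range and Hoxb1, Hoxa4 and Hoxa5 above it, while Hoxc13, Hoxb13, Hoxa2 and Hoxa3 lay inside it. Ddx4, a pan-germ-cell gene, stood at 0.023 (adjusted p 0.511), or 0.11 with library-size scaling (adjusted p 0.00112), and Dazl, another, at 0.16 (adjusted p 0.0448). Dazl stood at 0.076 without Veh replicate 1 and 0.24 without Veh replicate 2, and it was not called by DESeq2 (adjusted p 0.112) or with the stricter filter (adjusted p 0.0598).

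Markers of other testis cells were low. The 8 Sertoli cell markers summed to 45.9 to 50.7 CPM in Veh and 78.6 to 80.0 in NRRA. Of 6 tested, 2 were higher and 1 lower, so that 3 of 6 were called, near the 56.4% of all tested genes, with values from 2.82 for Clu to -1.59 for Sox9, and Amh had 1 to 3 counts. Without Veh replicate 1 the Sertoli calls were 1 higher and 2 lower, without NRRA replicate 1 they were 1 and 1, and without NRRA replicate 2 they were 2 and 2. The 7 Leydig and myoid cell markers summed to 15.4 to 16.6 CPM in Veh and 13.98 to 14.6 in NRRA, with 1 of 4 tested higher (Star, 0.31), 2 lower and Myh11 lowest at -0.88. The call of Star was lost by DESeq2 and without any 1 of the 4 libraries (adjusted p 0.0548 to 0.108), and 1 marker was lower without Veh replicate 1. The 7 macrophage and endothelial markers summed to 54.1 to 58.8 CPM in Veh and 42.2 to 43.8 in NRRA, with 2 of 6 tested lower, Pecam1 lowest at -1.96 and Lyz2 highest at -0.020. None was higher, also 0 at an unadjusted p under 0.05 in edgeR and by DESeq2 either way. Among all tested genes 27.9% were higher and 28.4% lower. The part of these cells in the Hox changes was not tested either.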

How the data were processed

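RNA-seq counts of 2 NRRA and 2 Veh libraries were analysed. Groups and replicate numbers were taken from the sample titles, and columns were matched by the descriptions. The authors deposited 1 table of raw read counts per gene (55421 genes). The submitters' processing notes name bcl2fastq, STAR 2.6.1c, featureCounts 1.6.4 and mm10, and the annotation release is not given in the sources used here. The methods describe a stranded oligo-dT kit (Tecan), and the labels an Illumina TruSeq kit and NuGENUPRNA.

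Genes were filtered with filterByExpr, scaled with TMM and tested with the edgeR 4.0.16 quasi-likelihood test (robust, R 4.3.3), with Benjamini-Hochberg adjustment over 20232 genes. The SE was derived from the F statistic. The authors used DESeq2 in a version not given in the sources used here, and DESeq2 1.42.0 was run here as an alternative. Other alternatives were size factors, filters, glmTreat at 1.5-fold, a replicate block and leaving out each library. The test was also run on counts simulated with the common dispersion of these libraries. Such counts cannot show how it behaves where genes differ in dispersion or where libraries are not independent. Coordinates and lengths are from GENCODE M21 (99.7% of identifiers matched), promoters from RefSeq (GRCm38.p6), and similarity was searched with BLAST 2.17.0. PCR copies were not told apart, so floors cover counting error only.

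The members and lists were chosen with earlier results of these data known. Hox genes are given with their counts, and SE, CPM and adjusted p were printed for the 15 with the smallest p. Of each other list the text names the tested members with the largest and smallest log2 fold change, plus Stra8, Cyp26a1, Rarb, Cdx1, Meis1, Meis2, Ezh2, Kmt2a, Col1a1, Prrx1, Twist1, Ddx4 and Dazl. Further genes named in the text were chosen after their values were seen. Results of 2 listed genes are not reported here, and the counts, sums and medians of lists leave them out.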

Additional observations from a re-analysis of the deposited data

How the results depend on the processing

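All 23 called Hox genes kept their direction with RLE size factors and with library-size scaling, and 22 were called under both. Of the 23, 18 were called by DESeq2 and 16 both by DESeq2 and with every library left out in turn. With each library left out the counts ran from 10 to 12 higher and from 8 to 9 lower, and the median from 0.035 to 0.24. Under glmTreat against 1.5-fold, 6 Hox genes were higher and 5 lower. The median was 0.22 with library-size scaling, 0.21 with no low-count filter (37 Hox genes), 0.22 with the stricter filter (28 Hox genes) and 0.050 without genes that overlap another. The causes of these shifts were not tested, beyond the different genes in the filtered and overlap-free medians.

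Same-numbered libraries did not deviate together (r = -0.011 across genes), with numbers from the titles. The column names number the Veh libraries 2 and 3, so which libraries share a number is uncertain. With the replicate block 14 Hox genes were higher and 9 lower, as without it, and the median was 0.12.

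Signs turned for some genes that were not called, of which Kmt2a was called higher with library-size scaling. With library-size scaling Hoxa9 stood at 0.086, Kmt2a at 0.080, Meis1 at 0.068, Ezh2 at 0.072 and Lyz2 at 0.069, and Hoxa9 at 0.0039 with no filter. With a library left out, the log2 fold change ran from -0.30 to 0.50 for Hoxa10, from -0.095 to 0.18 for Hoxc6, from -0.45 to 0.32 for Hoxa9, from -2.10 to 0.014 for Hoxd10, from -0.00028 to 0.24 for Hoxc4, from -0.019 to 0.0027 for Kmt2a, from -0.065 to 0.024 for Meis1 and from -0.14 to 0.11 for Lyz2.

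In the other lists, lower TALE cofactors numbered 1 to 2 with a library left out. Library-size scaling called 7 Trithorax and 5 flanking genes higher. The noncoding genes numbered 1 higher and 1 lower by DESeq2, 0 lower with the stricter filter, and 2 to 3 higher and 1 to 2 lower with a library left out. Under glmTreat the higher and lower calls were 1 and 2 for Polycomb, 0 and 1 for Trithorax, 1 and 0 for flanking and 0 and 1 for noncoding genes, and 0 TALE cofactors were lower. A group left with 1 library was assumed to vary like the other group.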
